A study of Drosophila melanogaster with 2 samples.

Results

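A set of 10 forkhead genes of Drosophila melanogaster was examined for binding of Hmx-eGFP in whole embryos. They are CHES-1-like, jumu, foxo, FoxK, FoxP, fkh, slp1, slp2, bin and croc, 10 of the 13945 protein-coding genes on the nuclear chromosome arms. The genes were chosen by family, and CHES-1-like was selected on its number of summits, which was the highest of any protein-coding gene. Binding was measured by chromatin immunoprecipitation with sequencing (ChIP-seq) in embryos of a fly line whose Hmx gene carries an eGFP exon in an intron, so that the locus makes an Hmx-GFP fusion protein. Both sexes were pooled, at 0 to 24 h of development, and the sample description names an antibody against GFP whereas the antibody field names Hmx. The 2 samples, biological replicates 2 and 3, form 1 group. No second genotype, treatment or stage was analysed here, and neither was the control alignment. In whole embryos, few cells with strong binding and many cells with weak binding cannot be told apart.

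Forkhead proteins bind DNA through a winged-helix domain, and the family takes part in patterning, organ formation and metabolism. Hmx is a homeodomain transcription factor of the nervous system and head. Among the 10 genes, CHES-1-like (FoxN2/3 class) and jumu (FoxN1/4 class) act together in dividing heart progenitors. The gene foxo encodes the factor that insulin signalling holds out of the nucleus, and FoxK a factor of the midgut. The genes slp1 and slp2 act in segmentation, bin in the visceral mesoderm, fkh in the gut and salivary gland, croc in the head, and FoxP in the brain.

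The deposited data are lists of regions. Each region has a summit and a signal, whose scale is that of the software that found it, so values are set against each other within a list, and between lists by rank (1 is strongest). The set that passed the irreproducible discovery rate procedure (the IDR set) held 1607 regions, 1595 of them on the chromosome arms. These had a median signal of 110.5 (78.4 to 1041). A longer list of 30000 regions from both replicates pooled, and a list of 30000 from each replicate, also hold background, and 3184 pooled regions had a q value below 5%. The IDR set had the same signals as the 1607 strongest pooled regions, so it acts here as a cutoff on pooled signal. A region in it need not be among the strongest of each replicate. The number of reads is unknown. A summit was counted for a gene when it lay in the gene body or 1 kb upstream. The rule for the genes used these same summits, so counts, signals and positions are given as descriptions without a test. All coordinates are 1-based on dm6.

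The sequences below are the 101 bp centred on 7 summits, read from the RefSeq copy of the dm6 assembly and written 5′ to 3′ on the plus strand. Capitals mark runs of 6 or more bases that hold only A and T. The first 4 are the strongest IDR summits of CHES-1-like, all in introns. The next 2 are both IDR summits of jumu, which had nearly equal signal and unlike base composition. The last is the IDR summit nearest to bin, just outside the 1 kb limit.
CHES-1-like region 4, chrX:7705630-7705730: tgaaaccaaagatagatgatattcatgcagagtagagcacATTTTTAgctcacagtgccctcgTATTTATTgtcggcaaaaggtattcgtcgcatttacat
CHES-1-like region 5, chrX:7703116-7703216: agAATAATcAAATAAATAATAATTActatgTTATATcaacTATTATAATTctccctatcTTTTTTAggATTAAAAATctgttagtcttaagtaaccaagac
CHES-1-like region 7, chrX:7698362-7698462: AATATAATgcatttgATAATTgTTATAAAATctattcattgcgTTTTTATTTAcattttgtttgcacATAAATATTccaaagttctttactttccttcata
CHES-1-like region 8, chrX:7697033-7697133: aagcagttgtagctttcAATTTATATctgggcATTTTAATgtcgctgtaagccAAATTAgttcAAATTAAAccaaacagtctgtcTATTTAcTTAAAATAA
jumu region 1, chr3R:10351339-10351439: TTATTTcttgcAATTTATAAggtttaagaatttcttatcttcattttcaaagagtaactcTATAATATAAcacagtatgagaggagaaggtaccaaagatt
jumu region 2, chr3R:10356966-10357066: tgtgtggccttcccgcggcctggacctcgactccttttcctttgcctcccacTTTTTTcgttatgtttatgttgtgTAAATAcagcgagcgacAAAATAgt
Region upstream of bin, chr3L:6989287-6989387: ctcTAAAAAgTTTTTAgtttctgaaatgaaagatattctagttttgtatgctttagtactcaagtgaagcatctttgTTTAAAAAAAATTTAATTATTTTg

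Of the 10 forkhead genes, CHES-1-like and jumu held IDR summits. CHES-1-like had 9 and jumu had 2, so 2 of 10 genes held an IDR summit, against 12.2% of all protein-coding genes. The other 8 genes held none. In the pooled list CHES-1-like had 25 regions, 11 of them with a q value below 5%, and foxo had 18, 2 of them below 5%. The gene jumu had 6, of which the 2 IDR regions were below 5%. FoxK had 4 pooled regions, fkh 3, FoxP 2 and slp2 2, none with a q value below 5%. In slp1, bin and croc the pooled list held no summit. At this q value 3 of the 10 genes held a region, against 19.6% of protein-coding genes. Because the genes were chosen with these counts known, nothing is read from either share.

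**Figure D1:**
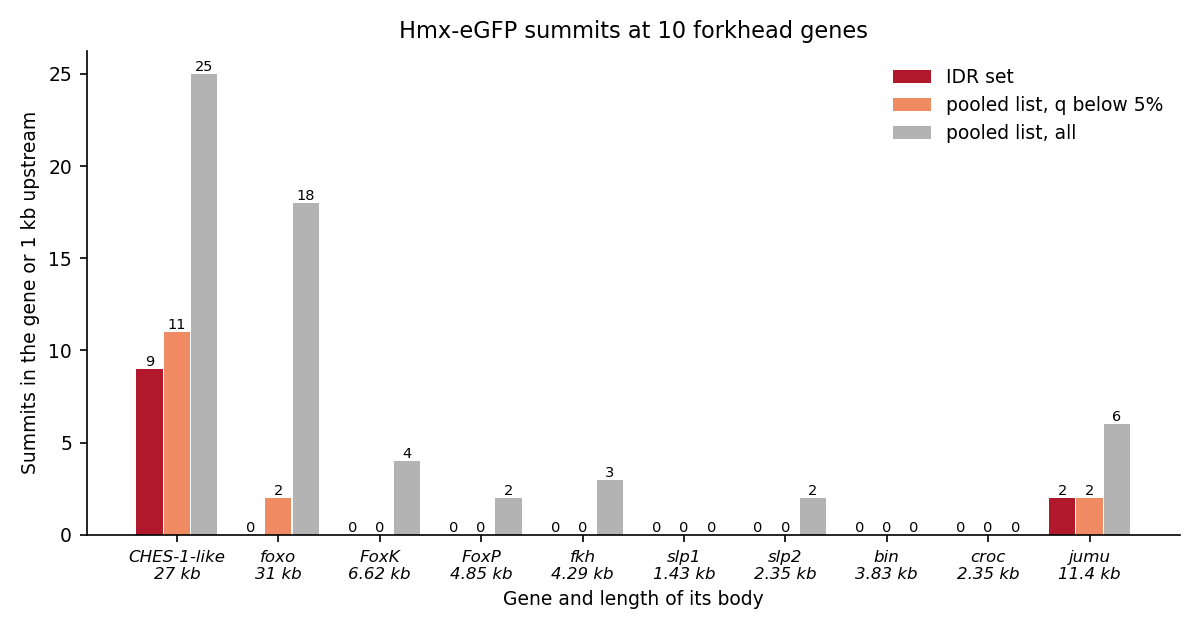
Number of summits in the gene body or 1 kb upstream for each of the 10 forkhead genes, with the length of the gene body in kb. Red bars count the IDR set, orange bars pooled regions with a q value below 5% and grey bars the whole pooled list. CHES-1-like (9, 11 and 25) and jumu (2, 2 and 6) have IDR summits, and foxo has 18 pooled regions without any.

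The CHES-1-like gene lies on chrX:7682338-7709385, minus strand, and is 27.0 kb long. Its 4 transcripts start at 4 places, at the 5′ end and 4.42, 12.7 and 14.5 kb downstream of it, and share the exons at the 3′ end. The longest transcript has an intron 1 of 19.0 kb (chrX:7689997-7708994), which makes up 70.2% of the gene. Of the 9 IDR summits, 8 lay in this intron and 1 in the non-coding exon 1 upstream of it. The remaining 7.66 kb, where the shared exons lie, held 0 IDR summits and 1 pooled region. The intron held 21 of the 25 pooled regions.

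Numbered in the direction of transcription, the 9 IDR regions had pooled signals of 121.1, 87.55, 94.60, 194.7, 251.6, 78.93, 182.8, 179.9 and 94.29. Their median was 121.1, and 5 of the 9 were above the median of all nuclear IDR regions. Regions 5, 4, 7 and 8 were the strongest of the gene, with ranks of 142, 247, 286 and 301 among the 30000 pooled regions. Regions 1, 3, 9, 2 and 6 followed with ranks of 665, 1086, 1097, 1271 and 1578. Signal did not fall off steadily from the 5′ end. Regions 4 and 5 were neighbours, as were regions 7 and 8, and the weaker region 6 stood between them.

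Region 5, chrX:7702948-7703383, had the highest signal of the gene. Its summit was 6.22 kb from the 5′ end and 1797 bp downstream of the second start. Region 4, chrX:7705462-7705897, was centred 717 bp upstream of that same start. Region 7, chrX:7698308-7698427, was 120 bp wide, against 436 bp for the other 8, so its printed window runs past the edge of the region. Its summit lay 1708 bp upstream of the third start, and that of region 8, chrX:7696865-7697300, lay 379 bp upstream of it. Region 1, chrX:7708845-7709280, was 322 bp downstream of the 5′ end. Region 9, chrX:7692002-7692437, lay 2698 bp downstream of the last start and was the farthest into the gene, at 63.5% of its length. Region 6, chrX:7700208-7700643, was 3722 bp from the nearest start.

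Only regions 1 and 8 of the 9 lay within 500 bp of an annotated start. Over all nuclear IDR summits this held for 958 of 1595, or 60.1%. Among the other genes with at least 6 IDR summits, it held for 2 of 7 at shn, 3 of 6 at CG14434, 0 of 6 at Hr4 and 1 of 6 at sbb.

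**Figure D2:**
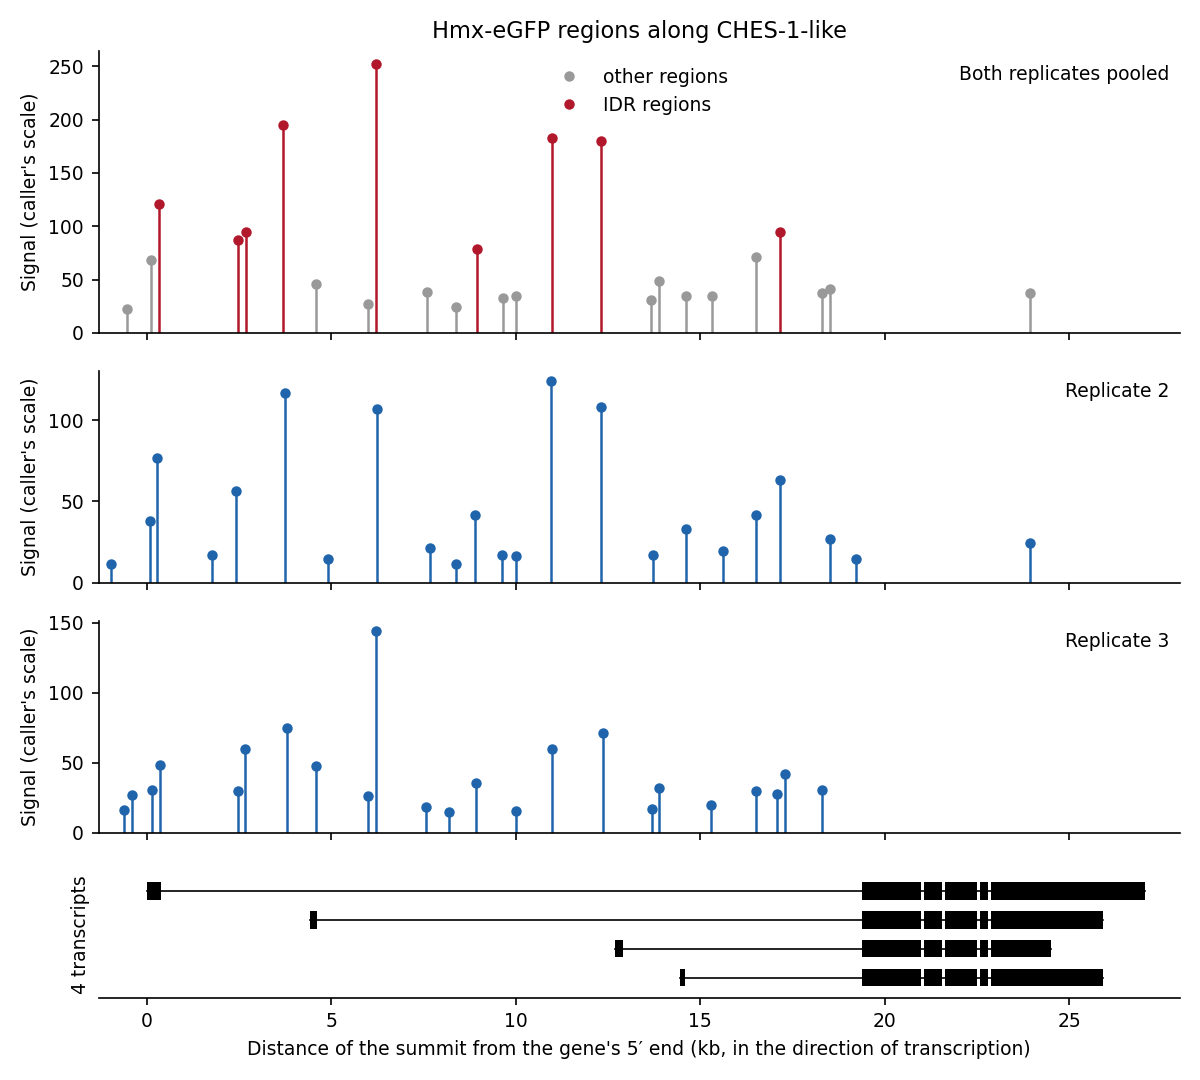
Signal of each region along CHES-1-like against the distance of its summit from the 5′ end of the gene, in kb in the direction of transcription. The top panel shows the pooled list with the 9 IDR regions in red, the middle panels show replicate 2 and replicate 3, and black boxes below are exons of the 4 transcripts. Tall regions stand in the intron at 3.71, 6.22, 11.0 and 12.3 kb in all 3 lists, and the exons at the 3′ end are nearly empty.

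Neighbouring IDR summits of CHES-1-like were 220 to 4863 bp apart, with a median spacing of 2081 bp over 8 intervals. All 9 fell within 16.8 kb. The closest pair, regions 2 and 3 (chrX:7706697-7707132 and chrX:7706477-7706912), overlapped by 216 bp. Counted as a single region, which was decided after the data were seen, they leave 8. Region 2 also lay within 1 kb upstream of the non-coding gene lncRNA:CR43287, whose start was 860 bp away. No other summit of the 9 fell in a second gene. The widest gap, 4863 bp between regions 8 and 9, contains the third and the last start.

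In replicate 2, the regions nearest to IDR regions 1, 2, 4, 5, 6, 7, 8 and 9 had signals of 76.6, 56.7, 117, 107, 41.9, 124, 108 and 63.3. Their ranks in that list were 497, 954, 199, 254, 1762, 174, 249 and 774. Region 3 had no summit of replicate 2 within 250 bp, the nearest being that of region 2. In replicate 3, the nearest regions to IDR regions 1 to 9 had signals of 48.5, 30.0, 59.4, 75.1, 144, 35.5, 59.8, 71.5 and 27.7. Their ranks were 971, 3432, 619, 359, 89, 2116, 605, 408 and 4489.

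By an overlap of 1 bp or more, 8 of the 9 IDR regions met one of the 1607 strongest regions in both replicates. The exception was region 6. Region 3 had no replicate 2 summit within 250 bp and qualified there by overlap alone. With an overlap of at least 50%, or with a strong summit within 250 bp, 7 of the 9 qualified. By the nearest summit, the strictest of these, regions 1, 4, 5, 7 and 8 were among the 1607 strongest of both. Region 6 was outside that number in both. Regions 2 and 9 were inside it in replicate 2 and outside it in replicate 3 by the nearest summit, although a stronger summit of replicate 3 lay 206 bp from region 2 (rank 619, the one at region 3) and 145 bp from region 9 (rank 1383). The order of the strongest regions differed between the replicates. Region 7 was strongest in replicate 2 and region 5 in replicate 3, where its signal of 144 stood well above the next, 75.1 at region 4.

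Among the 1607 strongest regions of each replicate, CHES-1-like held 7 of replicate 2 and 8 of replicate 3. The 10 forkhead genes with such a region were CHES-1-like and jumu in both replicates, or 2 of 10, against 12.6% of protein-coding genes in replicate 2 and 11.8% in replicate 3. One strong region of replicate 3, 4.60 kb from the 5′ end with a signal of 47.8 and rank 1012, had no IDR summit within 250 bp. It stood just beyond the second start, at 4.42 kb. In the pooled list this place had a signal of 45.4.

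**Figure D3:**
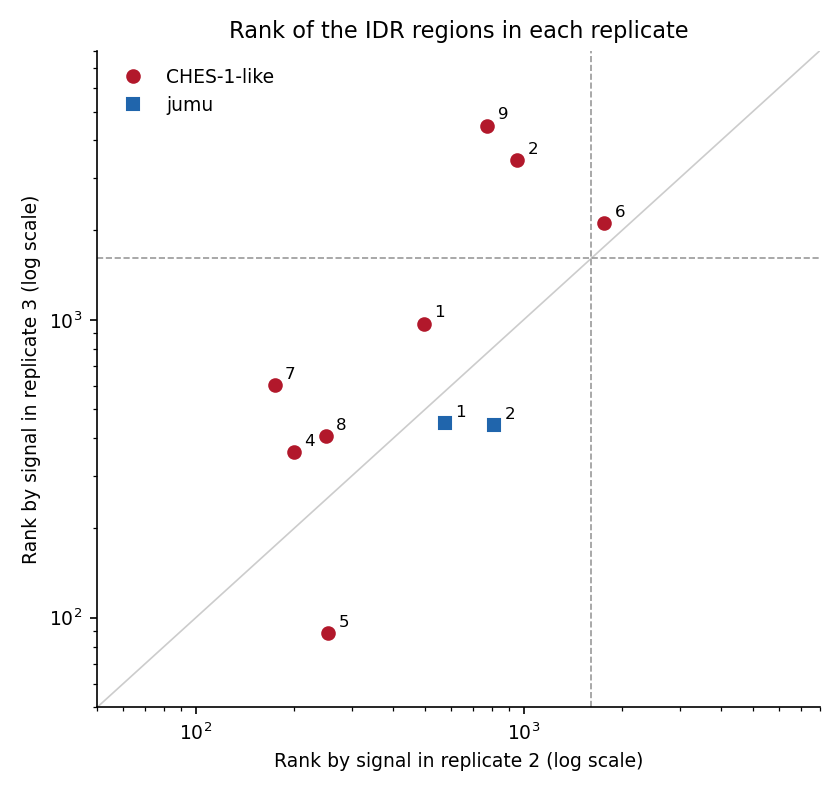
Rank by signal of the region nearest to each IDR region in replicate 2 (x) and replicate 3 (y), both on log scales with rank 1 strongest. Red circles are CHES-1-like regions and blue squares jumu regions, with their numbers. Dashed lines mark rank 1607, the size of the IDR set, and the grey line marks equal rank. CHES-1-like region 3 has no replicate 2 summit within 250 bp and is not drawn, and regions 2 and 9 lie highest above the line.

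The least signal among the IDR regions of the family was 78.93, at CHES-1-like region 6, followed by 87.5 at region 2. Just outside the IDR set were 2 further CHES-1-like regions. A region centred 16.5 kb from the 5′ end had a signal of 71.49 (rank 1917, q value 1.12%), with ranks of 1769 in replicate 2 and 3511 in replicate 3. A region 121 bp downstream of the 5′ end had 68.62 (rank 2085, q value 1.42%), with ranks of 2211 and 3372, and overlapped IDR region 1.

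CHES-1-like had 0.321 IDR summits per kb of body and upstream sequence, against 0.0119 per kb over all arms. Of the 13945 protein-coding genes, 12245 had 0 summits, 1443 had 1 and 202 had 2. Genes with at least 6 were taken as most like CHES-1-like in pattern, judged by the number of summits in the pooled IDR set. The zinc-finger gene shn had 7 in 59.3 kb. Hr4, the gene of an ecdysone-regulated nuclear receptor, had 6 in 67.0 kb, the co-repressor gene sbb 6 in 80.1 kb and CG14434 6 in 16.3 kb. CG14434 was denser than CHES-1-like, at 0.368 summits per kb, and the other 3 were less dense, at 0.118, 0.0895 and 0.0749.

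The median spacing was 1.14 kb at shn, 3.38 kb at CG14434, 4.02 kb at Hr4 and 6.00 kb at sbb, so that of CHES-1-like was second shortest of the 5. The highest signal was 251.6 at CHES-1-like, 272.1 at sbb, 216.1 at CG14434, 197.4 at Hr4 and 142.6 at shn. At a q value below 5%, shn had 13 pooled regions and sbb 12, more than the 11 of CHES-1-like. Among the 552 protein-coding genes of 20 to 40 kb, 23.6% had an IDR summit and 55 had 2 or more. In this length class CHES-1-like, with 9, was followed by crp with 5.

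The gene jumu, which like CHES-1-like belongs to the FoxN group, lies on chr3R:10350182-10361612, plus strand, with 1 transcript. Both IDR summits were in intron 1, at 1207 and 6834 bp from the start, 5627 bp apart. Region 1, chr3R:10351171-10351606, had a pooled signal of 124.7 (rank 628), and region 2, chr3R:10356798-10357233, had 125.9 (rank 612). In replicate 2 their signals were 71.5 and 62.0, with ranks of 575 and 812. In replicate 3 they were 68.3 and 68.9, with ranks of 451 and 442, and the summit matched to region 1 lay 141 bp from it. The 2 regions were close in signal in each list, both above the median of nuclear IDR regions and below the 4 strongest of CHES-1-like. The exons that follow intron 1 held no pooled region.

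The insulin effector gene foxo is longer than CHES-1-like, at 31.0 kb (chr3R:14056945-14087978, plus strand), and had no IDR summit. Its 18 pooled regions were spread over the gene, at 0.562 per kb, against 0.891 per kb at CHES-1-like and 0.224 per kb over all arms. The highest signal was 67.58 at chr3R:14061927-14062362, 5.20 kb into the gene in an intron. Its rank was 2166 in the pooled list, 4891 in replicate 2 and 2054 in replicate 3. The next was 65.41 at chr3R:14076996-14077431, also intronic, with ranks of 2313, 1949 and 5221. The replicates thus differed on which foxo region was stronger, and neither region was among the 1607 strongest of any list. The nearest IDR summit lay 3314 bp upstream of the gene, in intergenic sequence at chr3R:14053413-14053848, and foxo was the gene with the nearest start. It had a signal of 125.4 (rank 621) and ranks of 500 and 952 in replicates 2 and 3.

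**Figure D4:**
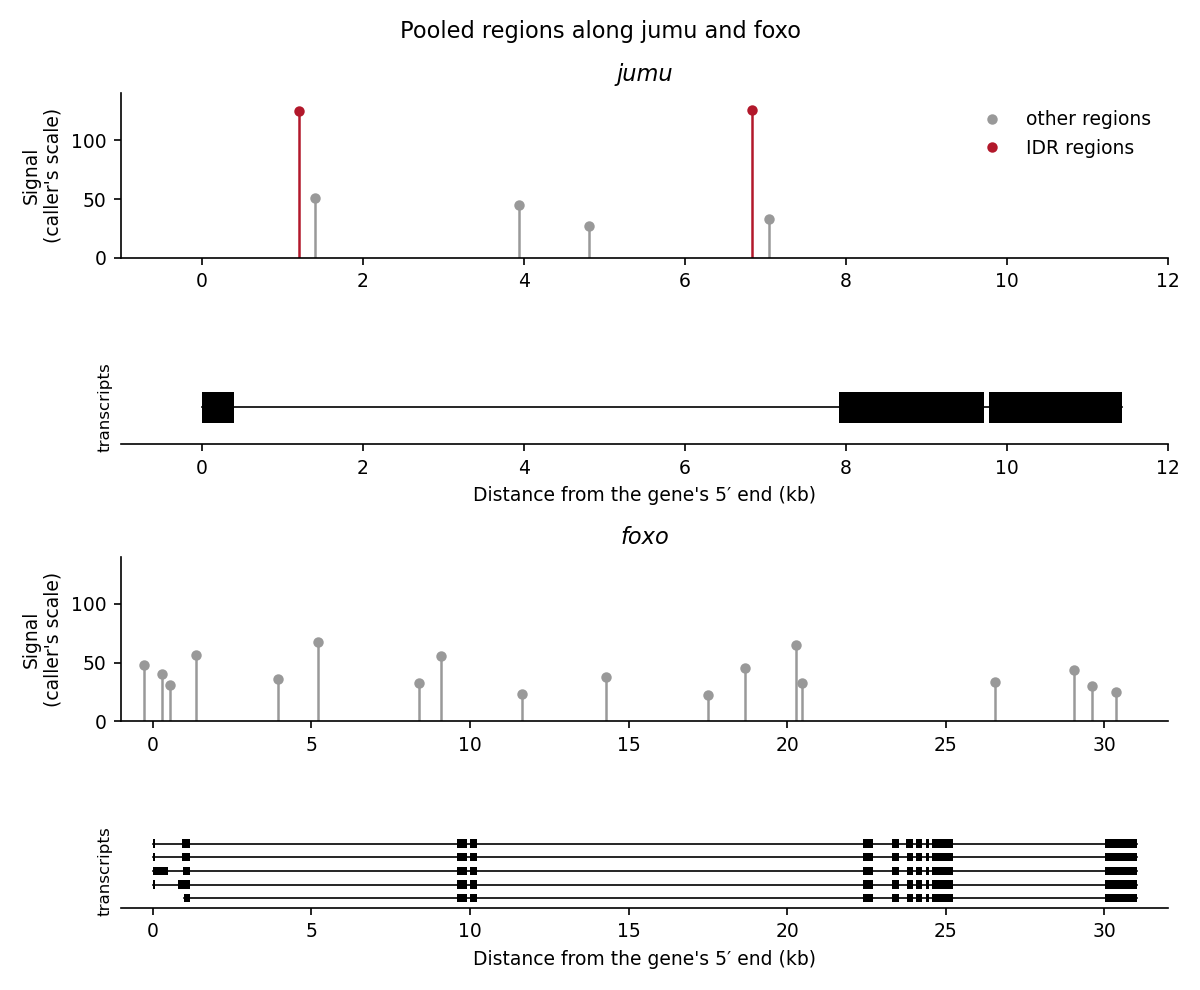
Signal of the pooled regions along jumu (top) and foxo (bottom) against the distance of the summit from the 5′ end in kb, on the same signal scale, with exons of each transcript as black boxes. The 2 IDR regions of jumu (red) reach 124.7 and 125.9 in intron 1. No region of foxo (grey) exceeds 67.58.

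In bin, the FoxF-class gene of the visceral mesoderm (chr3L:6990622-6994447, plus strand), no list had a summit in the body or 1 kb upstream. An IDR region at chr3L:6989119-6989554 had its summit 1285 bp upstream of the start, and the start of bin was the nearest to it. Its signal of 178.1 (rank 310) was close to those of CHES-1-like regions 7 and 8, and its ranks were 305 in replicate 2 and 549 in replicate 3. With 2 kb of upstream sequence counted, bin becomes the third forkhead gene with an IDR summit.

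The segmentation genes slp1 and slp2 stand side by side on 2L in the same orientation. An IDR region at chr2L:3832299-3832734 lay between them, with its summit 5418 bp beyond the end of slp1 and 4323 bp upstream of slp2. Its signal was 120.0 (rank 677), with ranks of 1190 in replicate 2 and 485 in replicate 3. Within slp1 and 1 kb upstream no list had a summit. At slp2 the strongest pooled region, 795 bp upstream, had a signal of 44.86, rank 5946 and a q value of 20.4%. Replicate 3 had a region 814 bp upstream with a signal of 36.5, rank 1973 and a q value of 4.39%, whereas the strongest region of replicate 2 at slp2 was elsewhere, 486 bp upstream, with 21.5 and rank 8771.

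At FoxK, FoxP, fkh and croc no region was among the 1607 strongest of any list. At FoxK the strongest pooled region was intronic, 316 bp upstream of an internal start, with a signal of 44.33 and a q value of 21.7%. In replicate 2 alone it had a q value below 5%, of 1.02%, with a signal of 33.9 and rank 2881. It ranked 20404 in replicate 3, whose strongest region at FoxK lay elsewhere in the intron, with rank 4857. At FoxP, a region 59 bp downstream of a start had 50.48 (q value 11.8%), and the strongest regions of replicates 2 and 3 there ranked 5313 and 6290. At fkh, a region 235 bp upstream of the start had 32.43 (q value 53.3%) and ranked 10054 in replicate 2. The strongest region of replicate 3 was 23 bp upstream of the start, with rank 9088. At croc, replicate 3 alone had a region, with a signal of 14.8 and rank 25929. The nearest IDR summits were 15.6 kb from FoxK, 23.2 kb from FoxP, 252 kb from fkh and 40.9 kb from croc, and each had its nearest start in another gene.

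Of 9 further forkhead genes (fd3F, fd19B, fd59A, FoxL1, fd96Ca, fd96Cb, fd102C, CG32006 and Crg-1), 0 had an IDR summit. Over all protein-coding genes 12.2% had one, and with 9 genes of 0.981 to 8.72 kb nothing is read from this count. The highest signal among these 9 genes was 74.70, in a coding exon of CG32006 (chr4:151879-152314), with rank 1759 and a q value of 0.995%. It ranked 1803 in replicate 2 and 2425 in replicate 3. In 4 of the 9 the pooled list had no summit, a count for which the share over all genes was not computed. The highest signals of the other 4 were 35.57 at fd96Cb, 35.02 at fd96Ca, 30.97 at fd102C and a lower value at FoxL1, with rank 24568.

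The 101 bp at the 11 IDR summits of CHES-1-like and jumu had a median G+C content of 29.7%, the same as the median of all 1595 nuclear IDR summits. The values ran from 21.8% at CHES-1-like regions 5 and 7 to 47.5% at jumu region 2. Regions 1, 2, 8 and 9 of CHES-1-like had 29.7% each, region 3 had 28.7%, region 4 had 38.6% and region 6 had 39.6%. The whole gene CHES-1-like has 38.4%, and its intron 1 36.3%. The window at jumu region 1 had 26.7%, against 47.5% at region 2, whose G+C was above that of 97.1% of all nuclear IDR summits. The jumu gene has 42.8%.

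The share of capitals in the printed sequences is a separate measure and did not follow G+C content throughout. Runs of at least 6 A or T took up 53.5% of the window at CHES-1-like region 5, the strongest of the gene, and 45.5% and 41.6% at regions 8 and 7. They took up 14.9% at region 4, which was the second strongest. Over all nuclear IDR summits the median was 29.7%, with quartiles of 19.8 and 40.6%. At jumu the shares were 24.8 and 17.8%, close together beside the gap in G+C content, and CHES-1-like region 8 had a larger share than jumu region 1 at a higher G+C content. Regions of nearly equal signal therefore differed widely in base composition, at both genes.

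**Figure D5:**
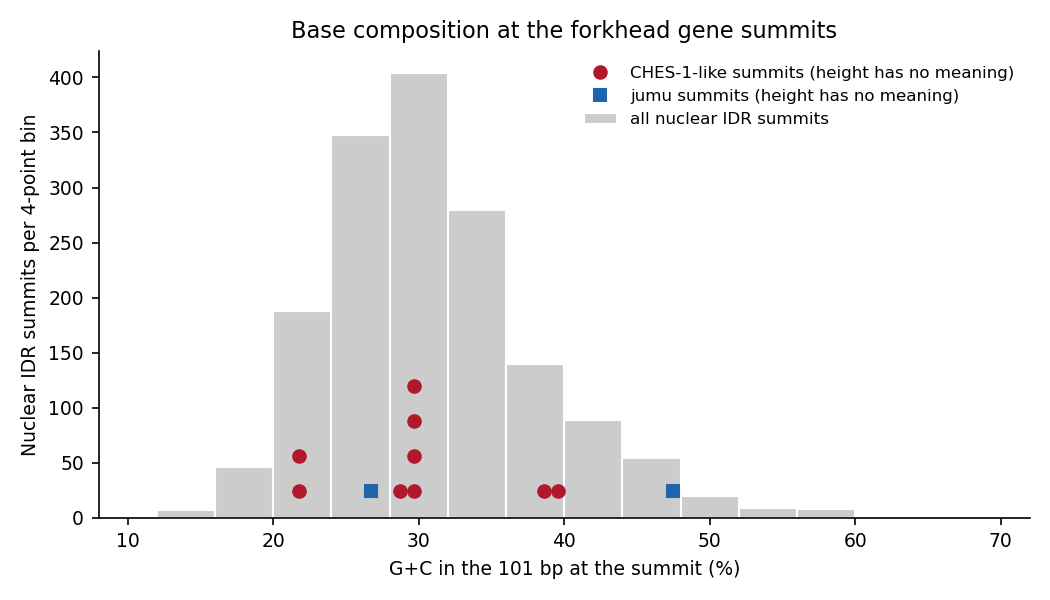
G+C content of the 101 bp at the summit (x, %) for all 1595 nuclear IDR summits (grey bars, number of summits in each bin of 4 percentage points) and for the 9 summits of CHES-1-like (red circles) and 2 of jumu (blue squares), whose height on the plot has no meaning. The forkhead gene summits run from 21.8% to 47.5% and share the median of 29.7% with all summits.

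A set of 6 short motifs was searched in the same windows on both strands. The forkhead core GTAAACA was in 0 of the 11 windows, and in 2.70% of all nuclear IDR windows. Over the whole regions it was in 4 of 11, against 13.2% of all nuclear IDR regions. These were 3 places, since CHES-1-like regions 2 and 3 share the match at chrX:7706809-7706815 in their overlap. The others were at chrX:7696955-7696961 in region 8, 125 bp from the summit, and at chr3R:10357222-10357228 in jumu region 2, 209 bp from it.

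The homeodomain site TAATTA was in the window of CHES-1-like region 5 alone, the strongest of the gene, and in 11.2% of all windows. The site TAAGTG, searched for as an Hmx site, was in 0 of 11 windows, against 5.45% of all windows. The site CAAGTG, searched for as an NK-class homeodomain site and different in the first letter, was also in 0, against 4.01%. The site GAGAGA of the Trl protein was in 1 window, that of CHES-1-like region 2, and in 3.20% of all windows. The promoter element TATCGATA was in 0, against 1.25%. Over the whole regions, the homeodomain site was in 2 of 11, against 31.0% of all nuclear IDR regions. TAAGTG was in 1, against 319 of all 1595, and CAAGTG in 1, against 22.1%. The Trl site was in 4 of 11, against 24.7%, and the promoter element in 0, against 6.46%. CHES-1-like regions 2 and 3 are both among those 4, since the Trl match in the window of region 2 lies in their overlap. Outside the 11, the window upstream of bin held the homeodomain site TAATTA and the NK-class site CAAGTG, with a G+C content of 22.8%. The window between slp1 and slp2 held TAAGTG, searched for as an Hmx site, at a G+C content of 42.6%. The window upstream of foxo held none of the 6 motifs at 38.6%. With 11 windows, some of them from overlapping regions, these matches describe the letters in the windows and were not tested.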

How the data were processed

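The authors deposited region lists on dm6 in the narrowPeak format, per the deposited records. The signal value (deposited by the authors) is on the caller's scale, and its further normalization is not given in the sources used here. The significance column holds −log10 q values deposited by the authors. In the IDR set all regions share a q value of 0.653%, so regions were ranked by signal. The deposited records name a control alignment behind all lists, and derive the IDR set from the pooled and replicate ones. Which caller, aligner and IDR cutoff were used is not stated in those sources. Lists on dm3 were not used.

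Genes came from Ensembl release 115 (BDGP6.54) without transposable elements, on the 6 chromosome arms. All 10 genes had equal coordinates in RefSeq. Of the other names listed, fd64A is now FoxL1, fd68A is FoxK, and Crg-1 was added after the annotation was read. A replicate region was matched when its summit lay within 250 bp. Counting and motif search were tested on simulated data. Python 3.11.15, pandas 2.3.3 and numpy 2.4.6 were used.

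Every forkhead gene was named. The genes and lists were chosen with earlier results of these data known, and no comparison between groups was possible. Alternatives covered the gene limits, the region set, each replicate alone, the overlap and the window.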

Additional observations from a re-analysis of the deposited data

How the results depend on the processing

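Of 69 values recomputed for 12 results, 55 kept their value within 1.5 times (counts) or within the spread between the replicates (other values). That spread is the standard deviation of the replicate-alone values, which were themselves judged against it. Some values could not move, such as the highest signal when only the stronger regions were kept. The number 55 is therefore no measure of robustness. With IDR regions at or above the median signal, fewer by construction, the 10 genes had 7 summits and CHES-1-like 5, with a median spacing of 2948 bp, and 938 protein-coding genes had a summit. With pooled regions of q below 5%, 2740 genes had one and CHES-1-like had rank 3 by number, after shn and sbb. In gene bodies alone 743 genes had a summit, while the counts of CHES-1-like and jumu were unchanged. Of the 9 CHES-1-like summits, 0 lay within 250 bp of a start and 4 within 1 kb. The whole pooled list put 25 regions in CHES-1-like. With 100 bp either side the median G+C was 32.8%. With each replicate alone, CHES-1-like had 7 to 8 summits, its highest signal was 123.7 to 143.8 on the scale of each list, and the median G+C was 28.2 to 29.7%. No paired analysis was possible because there is 1 group. Read depth is unknown and limits every value. With no control list, a region's level in untagged embryos was not examined.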
